A study of Arabidopsis thaliana with 6 samples.

Results

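The 10 genes described here belong to the enzyme families of the last steps of active cytokinin formation in *Arabidopsis*. They are 8 *LONELY GUY* genes, *LOG1* (AT2G28305), *LOG2* (AT2G35990), *LOG3* (AT2G37210), *LOG4* (AT3G53450), *LOG5* (AT4G35190), *LOG6* (AT5G03270), *LOG7* (AT5G06300) and *LOG8* (AT5G11950), and the 2 cytochrome P450 genes *CYP735A1* (AT5G38450) and *CYP735A2* (AT1G67110). They were chosen by gene identity, as 10 of the 33318 named entries of the deposited tables. Transcripts were measured by RNA sequencing in second internodes of Col-0 plants carrying *pPXY:GR-ARF5∆III/IV* (PXY:GR-MPΔIII/IV in the deposited labels, MP being another name of ARF5). In this line the *PXY* promoter, active in cambium stem cells, drives a fusion of the glucocorticoid receptor with an ARF5 protein that lacks domains III and IV. The fusion enters the nucleus upon treatment with dexamethasone (Dex). All plants carried the transgene and were 15 to 20 cm tall, and 3 libraries came from mock-treated and 3 from Dex-treated plants (15 µM, 3 h). Per the series' design text the RNA of 3 samples was pooled, and the study's methods describe replicates of 3 plants. The whole internode was sequenced, whereas the transgene is active in the *PXY* domain, and in such bulk RNA fewer cells of a type and less RNA per cell cannot be told apart. Dex-treated plants without the transgene were not analysed here, which leaves any response to Dex alone unmeasured.

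Cytokinins are made as nucleotides by isopentenyltransferases (IPT). CYP735A enzymes hydroxylate the side chain of these nucleotides, which turns isopentenyladenine forms into *trans*-zeatin forms, and LOG enzymes release the active free base from the nucleotide. Cytokinin oxidases (CKX) break the hormone down, and histidine kinase receptors (AHK) pass the signal through phosphotransfer proteins (AHP) to response regulators (ARR). In vascular tissue, cytokinin promotes the divisions of procambium and cambium cells. In roots, *LOG3* and *LOG4* are known to be activated by the helix-loop-helix proteins TMO5 and LHW, and *TMO5* is a known target of ARF5.

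The coding stretches below show what makes these genes 2 families. They were read from the TAIR10.1 genome with the RefSeq annotation, 5′ to 3′ on the coding strand, for the 4 *LOG* genes with the most reads and for both *CYP735A* genes. The capitals mark the codons of the glycine-rich signature shared by LOG proteins and of the loop around the haem-binding cysteine of P450 proteins.
LOG1: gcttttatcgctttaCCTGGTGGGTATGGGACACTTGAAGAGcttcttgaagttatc
LOG4: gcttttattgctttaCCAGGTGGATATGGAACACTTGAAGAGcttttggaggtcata
LOG5: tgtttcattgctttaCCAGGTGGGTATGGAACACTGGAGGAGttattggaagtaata
LOG8: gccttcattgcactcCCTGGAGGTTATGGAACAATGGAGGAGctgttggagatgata
CYP735A1: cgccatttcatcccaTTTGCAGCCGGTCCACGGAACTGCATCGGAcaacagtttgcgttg
CYP735A2: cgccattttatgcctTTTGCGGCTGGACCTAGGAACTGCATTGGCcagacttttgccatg
A script found the signature of its family in all 10 genes. Among the *LOG* genes, the coding sequences of *LOG3* and *LOG4* were the closest pair, with 87.65% identical bases over 648 aligned, and *LOG2* and *LOG5* the most distant, at 63.95%. *LOG8* shared 65.88% to 68.75% of aligned bases with the other *LOG* genes. The coding sequences of *CYP735A1* and *CYP735A2* were 76.95% identical. Despite this likeness, every read counted for a member was unique to it, as the total and the unique gene reads were equal in each library.

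The libraries held 22871927 to 32099136 reads in genes, and levels are given as CPM, the reads of a gene scaled to the sum of these reads after TMM scaling. Differences were tested across the 19347 genes that passed the filter on low counts with the quasi-likelihood test of edgeR, with p-values adjusted over all of them and a threshold of 0.05. Mock replicate 2 stood apart. On the first principal component (49.4% of the variance) it lay at −9.75, between mock replicates 1 and 3 (−50.4 and −50.6) and the Dex libraries (30.1 to 44.2), and counts are also given without it where it changes them. Markers of the tissues of the stem were present in all libraries, with none of 20 at 0. The summed level of 5 xylem markers was 4295 to 4862 CPM in mock and 3618 to 5012 CPM in Dex libraries, and that of 4 phloem markers 373 to 425 and 369 to 381 CPM. The 4 markers of the green cortex summed to 4164 to 8669 CPM in mock and 3531 to 5238 CPM in Dex libraries, and the 4 of the epidermis to 165 to 484 and 126 to 222 CPM. Mock replicate 2 had the lowest mock value for both, 4164 and 165 CPM. The median log2 fold change of the cortex markers was −0.89. None of them was called by edgeR or limma-voom. DESeq2, the exact test and an unadjusted p under 0.05 each gave 1 lower, and all 4 were called lower by edgeR without mock replicate 2. Of the epidermis markers, none was called by edgeR, DESeq2, limma-voom or the exact test, 2 were lower at an unadjusted p under 0.05, and edgeR called 1 lower without mock replicate 2. Of the 3 cambium markers, *ATHB8*, itself a known ARF5 target, rose, and *PXY* and *WOX4* did not pass (edgeR, adjusted p = 0.718 and 0.161). The *PXY* values overlapped. *WOX4* was at 0.777 of its mock level (edgeR, unadjusted p = 0.0283). All its Dex values lay under all its mock values, as for 12.1% of all tested genes. The study reports repression of *WOX4* upon Dex in this line, in part from these same libraries. The part of these differences in tissue markers in the results on the cytokinin genes was not tested.

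In mock-treated internodes *LOG8* was by far the most abundant of the 10 transcripts. Per exon length it stood at 111 ± 3.57 RPKM (SD, n = 3), followed by *LOG1* at 7.63 ± 1.71 RPKM. *CYP735A2* (1.596 ± 0.713 RPKM) and *LOG4* (1.59 ± 1.05 RPKM) came next and did not differ beyond their spread. The remaining members were at or near 0, with 0.181 ± 0.182 RPKM for *LOG3*, 0.0869 ± 0.118 RPKM for *LOG5*, 0.0684 ± 0.0848 RPKM for *LOG7* and 0.019 ± 0.0328 RPKM for *LOG6*, and no reads for *LOG2* and *CYP735A1*. In Dex libraries *LOG8* (154 ± 18.3 RPKM) and *LOG1* (16.1 ± 3.48 RPKM) again led. Behind them stood *LOG4* (7.86 ± 1.15 RPKM) and *LOG5* (6.67 ± 1.83 RPKM), whose values overlapped, whereas *CYP735A2* was at 0.252 ± 0.0787 RPKM, among *LOG6* (0.294 ± 0.195 RPKM) and *LOG3* (0.255 ± 0.201 RPKM).

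**Figure D1:**
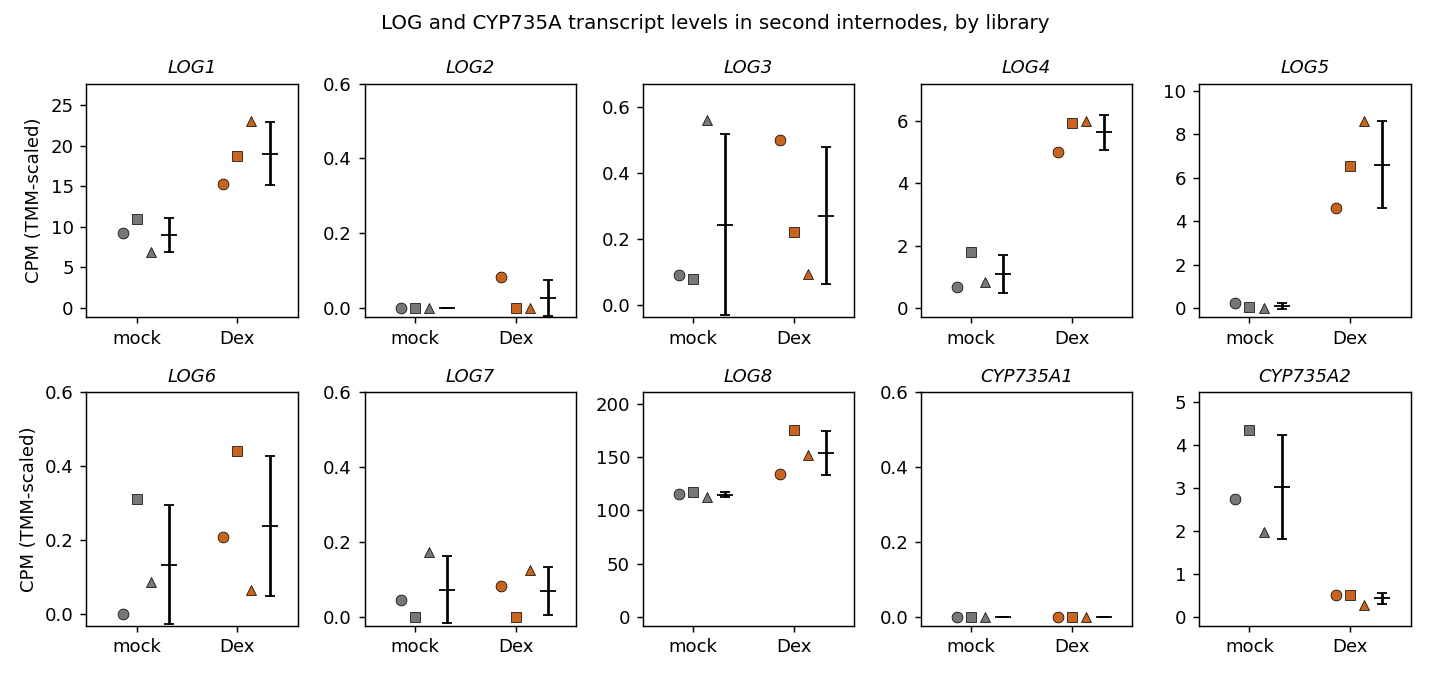
Level of each member in CPM (vertical axis, linear, own scale per gene) in the 3 mock (grey) and 3 Dex (orange) libraries; circles, squares and triangles are replicates 1, 2 and 3, and the bars are the mean ± SD. *LOG1*, *LOG4*, *LOG5* and *LOG8* lie higher and *CYP735A2* lower in all Dex libraries, while *CYP735A1* has no reads and *LOG2*, *LOG3*, *LOG6* and *LOG7* stay under 1 CPM.

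Of the 10 members, 5 passed the filter on low counts, which here asks for about 0.409 CPM in 3 libraries. *LOG5* passed through its Dex libraries alone, and for *CYP735A2* 1 Dex library lay below that level. Of the 5 tested members, *LOG1*, *LOG4* and *LOG5* rose and *CYP735A2* fell, whereas 4.63% of all tested genes rose and 2.07% fell. For all 5 the values of the treatments were separate, 4 higher and 1 lower under Dex, against 15.2% of all tested genes higher and 12.1% lower without overlap. *LOG1*, *LOG4*, *LOG8* and *CYP735A2* are on a list that the study drew in part from these same libraries, so their changes are not independent evidence. *LOG5* is not on that list. The list holds genes that were altered both here and in another line, *p35S:Myc-GR-bdl*, which expresses a repressor of auxin signalling. Absence from it therefore does not mean that the study found a gene unchanged in these libraries.

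Among the *LOG* genes, the largest fitted rise was that of *LOG5*. Its reads numbered 5, 1 and 0 in mock replicates 1, 2 and 3, and 111, 179 and 274 in Dex replicates 1, 2 and 3. This amounts to 0.226, 0.0389 and 0 CPM in mock and to 4.62, 6.56 and 8.62 CPM in Dex libraries. The transcript was thus next to absent from mock internodes and above 4 CPM in each Dex library. The log2 fold change was 6.20 with a standard error of 0.642 (edgeR, adjusted p = 0.001). As only 6 mock reads stand against 564 Dex reads, the size of the rise is loosely set. The ratio of the pooled reads, scaled for library size, was 80.4 with a 95% interval of 36.7 to 220 (exact binomial, counting error only), and the fitted log2 value ran from 5.66 to 8.03 with 1 library left out, the highest without mock replicate 1. The call held in all 6 of these fits (edgeR, adjusted p = 0.000592 to 0.0105).

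*LOG4* rose 5.10-fold. It had 0.677, 1.79 and 0.819 CPM in mock replicates 1, 2 and 3, from 15, 46 and 19 reads, and 4.997, 5.94 and 6.01 CPM in Dex replicates 1, 2 and 3, from 120, 162 and 191 reads. The 3 Dex values lay close together, and mock replicate 2 was the highest of the mock values. The log2 fold change was 2.35 (standard error 0.372; edgeR, adjusted p = 0.0087) and 2.91 without mock replicate 2. With any 1 library left out it ran from 2.099 to 2.91, with adjusted p from edgeR of 0.000409 to 0.0495. The exon length of *LOG4* in the deposited tables is 648 bases, the length of its coding sequence, and 4 of its 80 mock reads and 48 of its 473 Dex reads lay outside these bases. A noncoding gene on the opposite strand, AT3G08340, overlaps *LOG4* by 1 base at the start of *LOG4* in the TAIR10.1 annotation, and the sources used here do not give whether strand was used in counting.

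*LOG1* rose 2.11-fold (approximate 95% interval 1.59 to 2.80). Its levels were 9.26, 10.98 and 6.85 CPM in mock replicates 1, 2 and 3 and 15.3, 18.7 and 23.1 CPM in Dex replicates 1, 2 and 3. The lowest Dex value was above the highest mock value, which again was that of mock replicate 2. The log2 fold change of 1.08 (standard error 0.209; edgeR, adjusted p = 0.0202) became 1.24 without mock replicate 2. The call was lost without mock replicate 1, Dex replicate 2 or Dex replicate 3 (edgeR, adjusted p = 0.0697, 0.0779 and 0.0831), with log2 fold changes of 0.91 to 1.09 in these fits.

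*LOG8*, the dominant *LOG* transcript, was at 115, 117 and 112 CPM in mock replicates 1, 2 and 3 and at 134, 176 and 152 CPM in Dex replicates 1, 2 and 3. The mock values were nearly equal, and all Dex values lay above them. The 1.34-fold difference (approximate 95% interval 1.15 to 1.57; log2 fold change 0.42, standard error 0.115) had an unadjusted p of 0.00521 and missed the threshold after adjustment (edgeR, adjusted p = 0.0647). The adjusted p was 0.0405 without mock replicate 2, and 7 of 20 alternative settings gave a call, with log2 fold changes from 0.32 to 0.52 throughout.

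*LOG2*, *LOG3*, *LOG6* and *LOG7* were too rare to be tested. *LOG2* had 2 reads in all, both in Dex replicate 1. *LOG3*, the closest relative of *LOG4*, had 2, 2 and 13 reads in mock replicates 1, 2 and 3 and 12, 6 and 3 reads in Dex replicates 1, 2 and 3, so that the groups overlapped throughout. *LOG6*, with 10 mock and 19 Dex reads of which 9 and 3 lay outside its exons, and *LOG7*, with 5 and 6, overlapped likewise. A fit without the filter on low counts gave adjusted p of 0.603 for *LOG2*, 0.961 for *LOG3*, 0.759 for *LOG6* and 0.999 for *LOG7* (edgeR), but at these read numbers only large differences were detectable. The log2 ratio of *LOG4* to *LOG3* reads within a library, with 0.5 added to each, averaged 2.46 in mock and 4.56 in Dex libraries. This difference of 2.102 did not hold up against the spread (two-sided exact permutation test, p = 0.2, where 0.1 is the smallest p that 3 against 3 libraries allow), and it ran from 1.14 to 2.98 with 1 library left out.

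**Figure D2:**
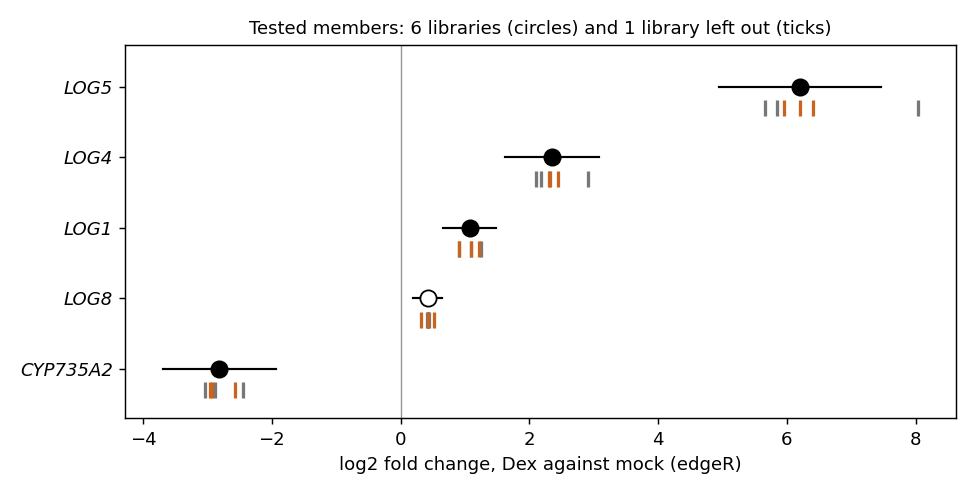
Log2 fold change of the 5 tested members, Dex against mock, from edgeR (circles, filled at an adjusted p under 0.05) with an approximate 95% interval (lines); the ticks below are the values with 1 mock (grey) or 1 Dex (orange) library left out. Every tick lies on the same side of 0 as its circle, and the ticks of *LOG5* spread from 5.66 to 8.03.

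As a family, *LOG* transcripts summed to 118, 127 and 116 RPKM in mock replicates 1, 2 and 3 and to 163, 205 and 186 RPKM in Dex replicates 1, 2 and 3. *LOG8* took 90.5% to 93.5% of this sum in mock libraries and 80.1% to 84.6% in Dex libraries. *LOG4* and *LOG5* together took 0.871%, 2.22% and 1.02% in mock and 6.97%, 7.46% and 9.09% in Dex replicates 1, 2 and 3. The sum of the *LOG* genes other than *LOG8* was 7.54 to 12.1 RPKM in mock and 25.1 to 36.9 RPKM in Dex libraries. These sums describe transcripts per exon length and were not tested.

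**Figure D3:**
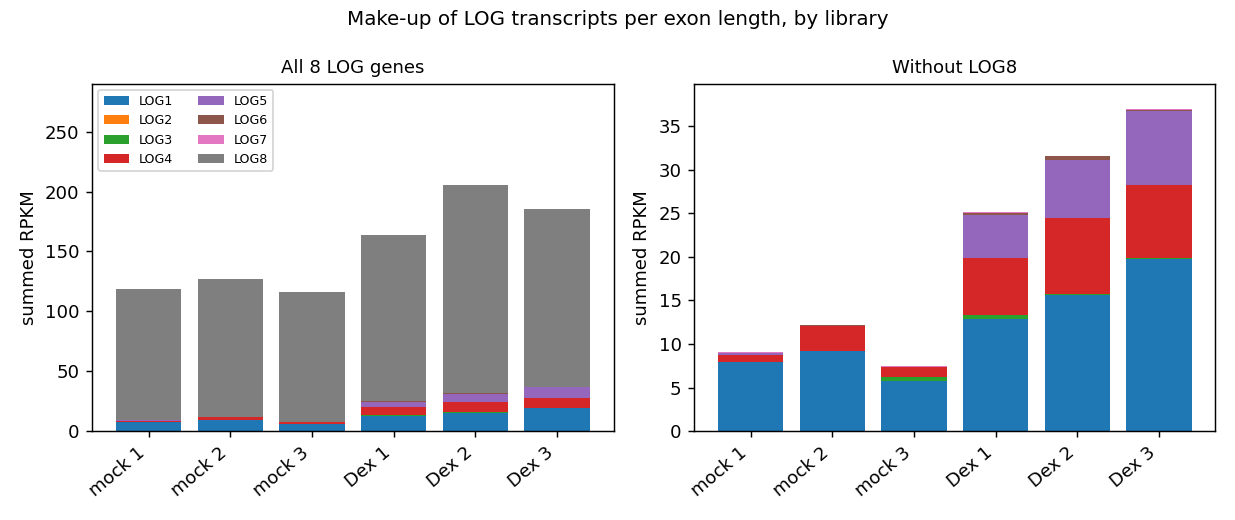
Summed RPKM of the *LOG* genes in each library (vertical axes, from 0), stacked by gene, for all 8 genes (left) and without *LOG8* (right). *LOG8* makes up most of every bar on the left, and without it the Dex bars of 25.1 to 36.9 RPKM, built mostly of *LOG1*, *LOG4* and *LOG5*, stand above the mock bars of 7.54 to 12.1 RPKM.

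The hydroxylase gene *CYP735A2* changed in the opposite direction. It was at 2.75, 4.36 and 1.98 CPM in mock replicates 1, 2 and 3, from 61, 112 and 46 reads, and at 0.50, 0.513 and 0.283 CPM in Dex replicates 1, 2 and 3, from 12, 14 and 9 reads. All Dex values lay under all mock values, among which mock replicate 2 was again the highest. Its Dex level was 0.142 of the mock level (approximate 95% interval 0.0775 to 0.261), a log2 fold change of −2.81 with a standard error of 0.447 (edgeR, adjusted p = 0.00876). The log2 value was −2.45 without mock replicate 2 and ran from −3.04 to −2.45 over the fits with 1 library left out (edgeR, adjusted p = 0.00776 to 0.0476). *CYP735A1* had no reads in any of the 6 libraries, which allows up to 0.0195 CPM (3 counts over all libraries, counting error only), so that *CYP735A2* accounted for every *CYP735A* read of these internodes and no ratio between the genes was formed.

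Upstream sequences of the members with the largest changes, *LOG4*, *LOG5* and *CYP735A2*, are shown because ARF proteins bind auxin response elements in promoters. Each is the 250 bases before the annotated gene start in TAIR10.1, 5′ to 3′ on the gene's strand, at chr3:19815667-19815916 (minus strand) for *LOG4*, chr4:16745939-16746188 (plus strand) for *LOG5* and chr1:25065447-25065696 (minus strand) for *CYP735A2*. The capitals mark the G-box CACGTG, a site of helix-loop-helix and other factors.
LOG4: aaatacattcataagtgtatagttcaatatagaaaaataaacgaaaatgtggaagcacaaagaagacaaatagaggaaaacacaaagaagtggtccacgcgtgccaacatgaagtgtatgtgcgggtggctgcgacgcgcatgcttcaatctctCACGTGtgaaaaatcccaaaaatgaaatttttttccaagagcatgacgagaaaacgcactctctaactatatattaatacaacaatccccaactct
LOG5: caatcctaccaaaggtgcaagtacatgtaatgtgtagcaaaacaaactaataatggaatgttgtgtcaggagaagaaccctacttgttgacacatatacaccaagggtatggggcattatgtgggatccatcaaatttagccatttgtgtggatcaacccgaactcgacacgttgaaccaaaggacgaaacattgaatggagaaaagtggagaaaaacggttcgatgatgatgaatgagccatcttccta
CYP735A2: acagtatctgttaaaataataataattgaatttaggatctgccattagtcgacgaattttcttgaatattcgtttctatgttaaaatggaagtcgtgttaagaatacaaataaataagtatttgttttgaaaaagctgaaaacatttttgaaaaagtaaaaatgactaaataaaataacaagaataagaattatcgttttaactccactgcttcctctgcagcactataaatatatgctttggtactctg
The motifs searched on both strands were the auxin response elements TGTCTC and TGTCGG and the G-box CACGTG, in the window from 250 bases before to 50 after the gene start of 27443 protein-coding genes. Other forms were not searched, among them CAGACA, a *WOX4* promoter site that the study found bound by the ARF5 DNA-binding domain in vitro. The G-box was found for *LOG4*, 96 bases upstream of the start, and for *LOG6*, 84 bases upstream, and in 7.68% of all windows. TGTCTC was found for *LOG8*, 33 bases upstream on the other strand, and for *CYP735A1*, 224 bases upstream, and in 14.2% of all windows. TGTCGG was found for none of the 10 members and in 5.12% of all windows. Over the 1000 bases before the start, TGTCTC was found for 6 of the 10 members (39.6% of all genes), among them *LOG1* (444 bases upstream) and *LOG5* (827 bases upstream), CACGTG for *LOG3*, *LOG4* and *LOG6* (14.8% of all genes) and TGTCGG for none (14.6% of all genes). *CYP735A2* held none of these letters in either window. A match of letters is not a binding site, and binding was not measured in these data.

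The genes known to activate *LOG3* and *LOG4* in roots were measured in the same libraries. *TMO5* had 17.7, 23.7 and 16.9 CPM in mock replicates 1, 2 and 3 and 58.3, 49.5 and 43.3 CPM in Dex replicates 1, 2 and 3, a 2.58-fold rise (edgeR, adjusted p = 0.00205). Its relative *T5L1* rose from 99.8, 117 and 88.5 CPM to 294, 284 and 273 CPM, in the same order, which is 2.79-fold (edgeR, adjusted p = 0.000355). *LHW*, which encodes their partner, was measured at 105, 123 and 105 CPM for mock and at 139, 137 and 127 CPM for Dex replicates 1, 2 and 3, values that did not overlap and a 1.21-fold difference that did not pass (edgeR, adjusted p = 0.154). Of all tested genes, 15.2% were likewise higher without overlap. Without mock replicate 2, all 3 of these genes were called higher.

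Of 66 other genes of cytokinin synthesis, inactivation, transport and response, 50 were tested, 9 rose and 1 fell, and their median log2 fold change was 0.02, against −0.01 over all tested genes. Of all tested genes, 4.63% rose and 2.07% fell, and 15.2% were higher and 12.1% lower without overlap. These shares are the background of the counts by list below as well. The lists were written from general knowledge, with earlier results of these data known. *CKX6*, *CKX7*, *UGT76C1*, *APT3*, *ARR7* and *ARR9* are also on the list of the study named above. The counts were 13 higher and 3 lower without mock replicate 2 and 2 to 4 higher and 0 lower without any 1 of the other libraries. The 13 higher genes without mock replicate 2 were 3 *CKX*, 1 conjugation, 1 transport, 2 type-B, 3 type-A and 3 *CRF* genes, and the 3 lower were 1 each of salvage, transport and the receptor and phosphotransfer list.

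Genes of the first step of synthesis and of salvage did not pass. None of the 5 tested *IPT* genes was called by edgeR, DESeq2, limma-voom or the exact test, or at an unadjusted p under 0.05. *IPT3* stood at 14.4 ± 1.99 and 17.0 ± 2.00 CPM and *IPT9*, which encodes a tRNA-type enzyme, at 13.0 ± 1.41 and 13.5 ± 1.62 CPM in mock and Dex libraries (SD, n = 3 each). Of the 7 genes of the salvage enzymes, which return bases and ribosides to nucleotides, none was called by edgeR or limma-voom. DESeq2, the exact test, an unadjusted p under 0.05, and edgeR with no filter on low counts or without mock replicate 2 each gave 1 lower gene. The adenosine kinase genes *ADK1* and *ADK2* stood at 1.12-fold and 0.999-fold (edgeR, adjusted p = 0.515 and 0.997). *APT3* was the gene lower at an unadjusted p under 0.05. It was at 0.551 of its mock level (edgeR, unadjusted p = 0.00447, adjusted p = 0.0594). Mock replicates 1, 2 and 3 had 54.4, 30.8 and 52.9 CPM of *APT3*, and Dex replicates 1, 2 and 3 had 20.0, 29.9 and 26.1 CPM. These values did not overlap, whereas those of the other salvage genes did.

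Among the genes of cytokinin inactivation, 3 of 4 tested CKX genes and 1 of 3 tested conjugation genes rose. *CKX7* rose from 11.8, 13.2 and 12.4 CPM in mock replicates 1, 2 and 3 to 19.7, 20.6 and 21.3 CPM in Dex replicates 1, 2 and 3, which is 1.64-fold (edgeR, adjusted p = 0.00886). *CKX6* (1.67-fold) and *CKX5* (3.10-fold) passed narrowly (edgeR, adjusted p = 0.0462 and 0.0493), and only 15.6% of the reads of *CKX6* and 87.5% of those of *CKX5* were unique to the gene. DESeq2 and the exact test also gave 3 higher *CKX* genes, while limma-voom and edgeR on unique gene reads or library totals alone gave 2. A replicate block, limma on log2 RPKM or an adjusted p under 0.01 each gave 1. *UGT76C1*, which encodes a cytokinin glucosyltransferase, rose 1.39-fold (edgeR, adjusted p = 0.0388), whereas *UGT73C5* stood at 4.31 ± 2.60 CPM under mock and 2.25 ± 1.27 CPM under Dex treatment (SD, n = 3 each). The calls of *CKX5*, *CKX6* and *UGT76C1* were kept in 1 of the 6 fits that leave out a library, the fit without mock replicate 2, and the call of *CKX7* was lost without Dex replicate 2 or 3 (edgeR, adjusted p up to 0.189 for *CKX5* and 0.0517 for *CKX7*). Among 5 tested transporter genes, *PUP14*, whose product carries cytokinin into cells, fell to 0.769 of its mock level (90.5 ± 5.27 to 69.5 ± 3.53 CPM; SD, n = 3 each; edgeR, adjusted p = 0.0454), a call that was likewise kept only without mock replicate 2. *ABCG14*, which encodes an exporter of the long-distance path, had 31.7 ± 11.5 and 44.6 ± 10.4 CPM and did not pass.

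Of the response genes, the cytokinin response factor genes *CRF4* (2.89-fold) and *CRF5* (1.96-fold) rose out of 5 tested (edgeR, adjusted p = 0.00513 and 0.00876), and both calls held with any 1 library left out. *CRF3* had a 2.28-fold difference that did not pass (edgeR, adjusted p = 0.101). Its values did not overlap, whereas those of the other uncalled *CRF* genes did. DESeq2, the exact test, an unadjusted p under 0.05 and the fit without mock replicate 2 each gave 3 higher *CRF* genes. The type-A regulator genes, whose transcripts are known to be induced by cytokinin, included 2 of 7 that rose. Of these, *ARR15* is also described in the study's discussion as repressed by ARF5 in the shoot apical meristem. The study adds that ARF5 induces the *ARR15* promoter in transient expression. Whether cytokinin or ARF5 raised *ARR15* here was not tested. *ARR15* went from 10.2, 19.1 and 13.4 CPM in mock replicates 1, 2 and 3 to 40.2, 29.2 and 27.2 CPM in Dex replicates 1, 2 and 3 (2.26-fold), and *ARR9* rose 1.46-fold (edgeR, adjusted p = 0.0221 and 0.0149). The other 5 did not pass. Among them, *ARR7* had a 1.45-fold difference close to that of *ARR9*, with values that did not overlap (edgeR, adjusted p = 0.0911), and *ARR5* and *ARR6* had log2 fold changes of −0.28 and −0.12. DESeq2, the exact test, an unadjusted p under 0.05 and the fit without mock replicate 2 each gave 3 higher type-A genes. Among 6 tested type-B genes, which encode transcription factors, *ARR10* rose 1.40-fold (edgeR, adjusted p = 0.0337), and *ARR1* had a 1.21-fold difference that did not pass. *ARR2*, *ARR11*, *ARR12* and *ARR14* stood at 0.799, 0.917, 0.700 and 0.808 of their mock levels and did not pass either (edgeR, adjusted p = 0.134 to 0.665). All Dex values of *ARR12* and *ARR14* lay under all mock values, and an unadjusted p under 0.05 gave 1 lower type-B gene. Of 8 tested receptor and phosphotransfer genes, none was called by edgeR or limma-voom, while DESeq2 gave 2 lower genes, the exact test 1 and an unadjusted p under 0.05 gave 3. The receptor genes *AHK3* and *AHK4* had log2 fold changes of −0.34 and 0.07. The values of *AHK4* overlapped, whereas all Dex values of *AHK3* lay under all its mock values (edgeR, adjusted p = 0.0879). The third receptor gene, *AHK2*, was at 0.653 of its mock level with values that did not overlap (edgeR, adjusted p = 0.0642), and the phosphotransfer gene *AHP4* had a log2 fold change of −1.90, with mock replicate 2 at 16.0 CPM and the other libraries at 1.26 to 3.52 CPM (edgeR, adjusted p = 0.138). Without mock replicate 2, edgeR called 1 gene of this list lower. The calls of *ARR15* and *ARR10* were kept only without mock replicate 2 when 1 library was left out, and that of *ARR9* was lost without any 1 Dex replicate (edgeR, adjusted p up to 0.130 for *ARR10* and 0.0729 for *ARR9*).

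**Figure D4:**
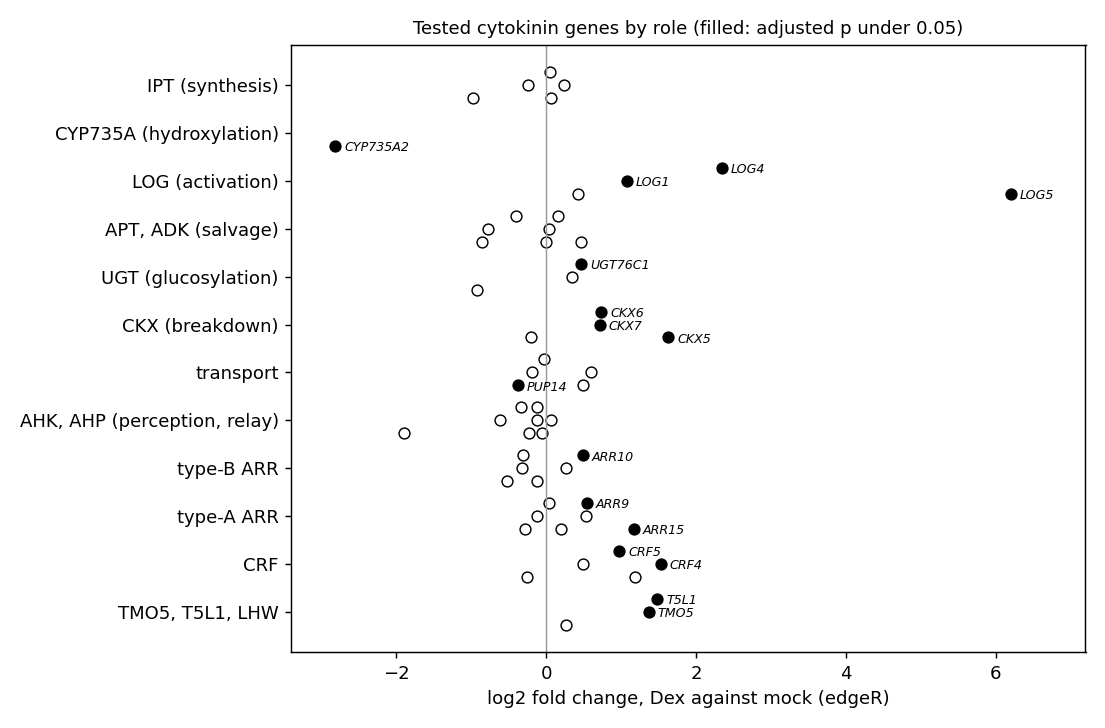
Log2 fold change of every tested cytokinin gene, Dex against mock (horizontal axis), in rows by role; filled circles passed at an adjusted p under 0.05 (edgeR) and are named. *CYP735A2* at −2.81 and *LOG5* at 6.20 are the outermost points, and the *IPT*, salvage and AHK or AHP rows hold no filled circle.

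The genes whose log2 CPM ran most like those of the called members over the 6 libraries, among 18273 tested genes with a mean of at least 1 CPM, were *ATK4*, *AT4G23340* and *AtIPCS1* for *LOG5* (Pearson r = 0.994 to 0.997), *AT3G55020*, *AGP31* and *GATA3* for *LOG4* (0.996 to 0.998), *LSH9*, *PUP14* and *ckl4* for *CYP735A2* (0.994 to 0.996) and *AT3G57070*, *HMGS* and *PDE345* for *LOG1* (0.991 to 0.996). As the values fall into 2 groups of 3 libraries that share a treatment, such coefficients largely follow the difference between the groups, and they are given as a description.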

How the data were processed

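RNA of second internodes was sequenced from 3 mock-treated and 3 Dex-treated replicates, grouped by their deposited labels. Reads were aligned to TAIR10 with CLC Genomics Workbench by the authors, who deposited gene, exon and unique read counts for each gene, with exon length, and RPKM values that scale exon reads by exon length and by the reads in genes. Entries without a gene name (0.0803% to 0.0998% of the reads) were left out.

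Counts over whole genes were tested with edgeR 4.0.16 in R 4.3.3 (glmQLFit and glmQLFTest) after TMM normalization (factors 0.969 to 1.04) and filterByExpr (minimum count 10, total 15), with Benjamini-Hochberg adjustment over the 19347 genes. Standard errors are the log2 fold change over the square root of F, and the 95% intervals use a normal quantile, so they are somewhat narrow for 3 libraries in each group. P-values measure the spread between these pooled samples. On simulated counts with the spread of these libraries, the test recovered 14 of 67 genes set to a 1.5-fold change, 36 of 67 at 2-fold and 58 of 66 at 4-fold, and 17 of its 125 calls (13.6%) fell on unchanged genes, more than the threshold of 0.05 allows for.

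Alternatives were RLE factors, library totals alone, no filter or 1 CPM in 3 libraries, DESeq2 1.42.0, limma-voom (limma 3.58.1), edgeR's exact test, other thresholds, unique or exon reads, limma on log2 RPKM plus 0.1 or 1, a replicate block and leaving out each library. All members are named. From each other list the text names up to 4 called genes of smallest adjusted p or, with fewer than 2 called, the called gene and the 2 most abundant, and it names 3 most similar genes for each of 4 called members. *APT3*, *CRF3*, *ARR7*, *ARR5*, *ARR6*, *ARR2*, *ARR11*, *ARR12*, *ARR14*, *AHK2*, *AHP4*, *LHW* and the 3 cambium markers were named outside this rule, after their values were seen. Members and lists were chosen with earlier results of these data known. Gene positions and sequences are from RefSeq on TAIR10.1. Where a gene has several coding sequences, the longest with the family's signature was used, and identity is that of a global alignment of bases.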

Additional observations from a re-analysis of the deposited data

How the results depend on the processing

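The calls of *LOG4*, *LOG5* and *CYP735A2* held in all 20 alternatives, with log2 fold changes of 1.84 to 2.91, 2.80 to 8.03 and −3.04 to −1.02; the smallest sizes came from log2 RPKM plus 1, where the added 1 shrinks rare transcripts. *LOG1* was called in 16 and *LOG8* in 7 of 20, and no member changed direction. The members called numbered 2 to 4 higher and 1 lower throughout. Depth limited what could be seen of *LOG2*, *LOG3*, *LOG6*, *LOG7* and *CYP735A1*.

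Over all genes, 895 were higher and 400 lower. The counts became 1399 and 948 with DESeq2, 2408 and 1969 at an unadjusted p under 0.05, 305 and 62 at an adjusted p under 0.01, and, for the lower genes, 851 with edgeR's exact test and 240 and 247 with limma on log2 RPKM plus 0.1 and plus 1. With 1 library left out they ran from 337 to 1918 higher and from 70 to 1559 lower, the most without mock replicate 2. Of the other cytokinin genes, 9 were higher and 1 lower. The higher count became 3 at an adjusted p under 0.01 and ran from 2 to 13 with 1 library left out. The lower count became 4 with DESeq2, 3 with the exact test, 6 at an unadjusted p under 0.05, 0 with library totals alone, at an adjusted p under 0.01 and with both limma fits on log2 RPKM, and ran from 0 to 3 with 1 library left out. The cause of these changes was not tested.

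The deviations of same-numbered mock and Dex libraries from their group means had correlations of −0.10, 0.00017 and 0.21 for numbers 1, 2 and 3. Those of differently numbered libraries ran from −0.24 to 0.22. With 3 libraries in each group these values cannot settle whether the numbers pair the samples, and the numbers were not taken to do so. With a replicate block, 3 members were higher and 1 lower, 613 and 261 of all genes, and 5 and 0 of the other cytokinin genes.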
